A study of Oryctolagus cuniculus with 36 samples.

Results

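The genes described here belong to the unfolded protein response (UPR), the programme by which a cell adjusts the folding capacity of its endoplasmic reticulum (ER). They were chosen by symbol as 10 known response genes: HSPA5, HSP90B1, DNAJB9, XBP1, HERPUD1, PDIA4, SDF2L1, HYOU1, CRELD2 and MANF. Of the 10, 9 are rows among the 23394 of the deposited count table, and CRELD2, a secreted ER factor, was not analysed here. All 9 passed the filter on low counts, which left 14939 genes for testing. The libraries are bulk RNA sequencing of rabbit liver from a series on CRISPR/Cas9 correction in newborn rabbits of an inherited liver disease, hereditary tyrosinemia type I. In that disease the gene FAH, whose product fumarylacetoacetate hydrolase completes the breakdown of tyrosine, is lost. Titles place 12 libraries each in the groups WT (read here as wild type), FA and FK. The labels spell out neither FA nor FK, say that the livers came from treated rabbits, give no age, allele, agent or dose for any group, and attach the same disease description to all 36 libraries, WT included. Each group holds 3 numbered sets of 4 libraries, and the 4 libraries of a set were summed to 1 replicate, so that n = 3 in each group. No label ties a set to a separate animal, and the p-values therefore speak for the spread between sets alone, which may be technical.

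The liver secretes most plasma proteins, and their chains fold inside the ER with the help of chaperones and disulfide-forming enzymes. When unfolded chains build up there, the ER membrane sensors IRE1 (gene ERN1), PERK (gene EIF2AK3) and ATF6 are released from the chaperone BiP and signal to the nucleus. IRE1 cuts an intron out of the XBP1 transcript so that an active transcription factor is made, ATF6 is cleaved to an active factor, and PERK slows translation while favouring ATF4. XBP1 and ATF6 then induce ER chaperones, cochaperones and degradation factors, among them the genes listed above. The deposited values count a gene as a whole, so cut and uncut XBP1 transcripts cannot be told apart here.

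Library totals ran from 14.2 to 18.7 M counts in WT, from 15.1 to 22.5 in FA and from 11.7 to 16.1 in FK, and a member was covered by at least 114 counts in every library. FAH stood at 217 to 271 CPM (the usual unit of counts scaled to library size, here after TMM scaling) in the WT replicates, 19.6 to 25.7 in FA and 11.8 to 16.3 in FK. FK replicates 1 and 2 stood apart from FK replicate 3 in blood-cell and division markers: the summed level of 14 erythroid markers was 1006 and 2652 CPM in FK replicates 1 and 2 and 157 CPM in FK replicate 3, against 41.2 to 111 CPM in WT and 116 to 265 CPM in FA. Sums and single genes differed here: 12 of the 14 erythroid markers had estimates below WT in FA, and the list's median log2 ratio to the WT mean was -1.68, -1.75 and -3.14 in FA and -2.63 in FK replicate 3. The WT replicates were themselves apart, with medians of -1.59, -1.24 and 1.16 in WT replicates 1, 2 and 3. FA replicates 1 and 2 thus lay near WT replicate 1. Of the 14 markers, 1 was lower and 1 higher in FA than in WT without overlap. The 9 neutrophil markers summed to 1194, 2059 and 27.2 CPM in FK replicates 1, 2 and 3, and the 12 cell division markers to 366, 755 and 16.3 CPM. Hepatocyte markers (13 of 14 matched) summed to 226300 to 292900 CPM in WT, 262800 to 301400 in FA and 203200 to 309800 in FK, so that hepatocyte genes were abundant in every replicate of this liver tissue. ALB, the gene of serum albumin, made up most of that sum except in FK replicates 1 and 2, and the list's median log2 ratio to the WT mean was 1.08, 0.79 and 0.74 in FK replicates 1, 2 and 3 and 0.24, 0.41 and -0.001 in FA replicates 1, 2 and 3. In bulk tissue, fewer cells of a type and less RNA per cell cannot be told apart.

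Within the family, HSPA5, HYOU1 and MANF had lower levels and XBP1 a higher level in every FA replicate than in any WT replicate. Over all genes tested, 12.4% were lower and 12.5% higher in FA without overlap with WT. FK replicate 3 resembled FA in all 4 of the named genes. FK replicates 1 and 2 lay within or close to the WT range for HSPA5, XBP1 and MANF and above it for HYOU1, SDF2L1 and PDIA4. None of the 9 genes passed edgeR's test in any comparison at an adjusted p under 0.05. At this spread the groups were therefore not separated for any member after adjustment, which does not show that their levels are alike.

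**Figure D1:**
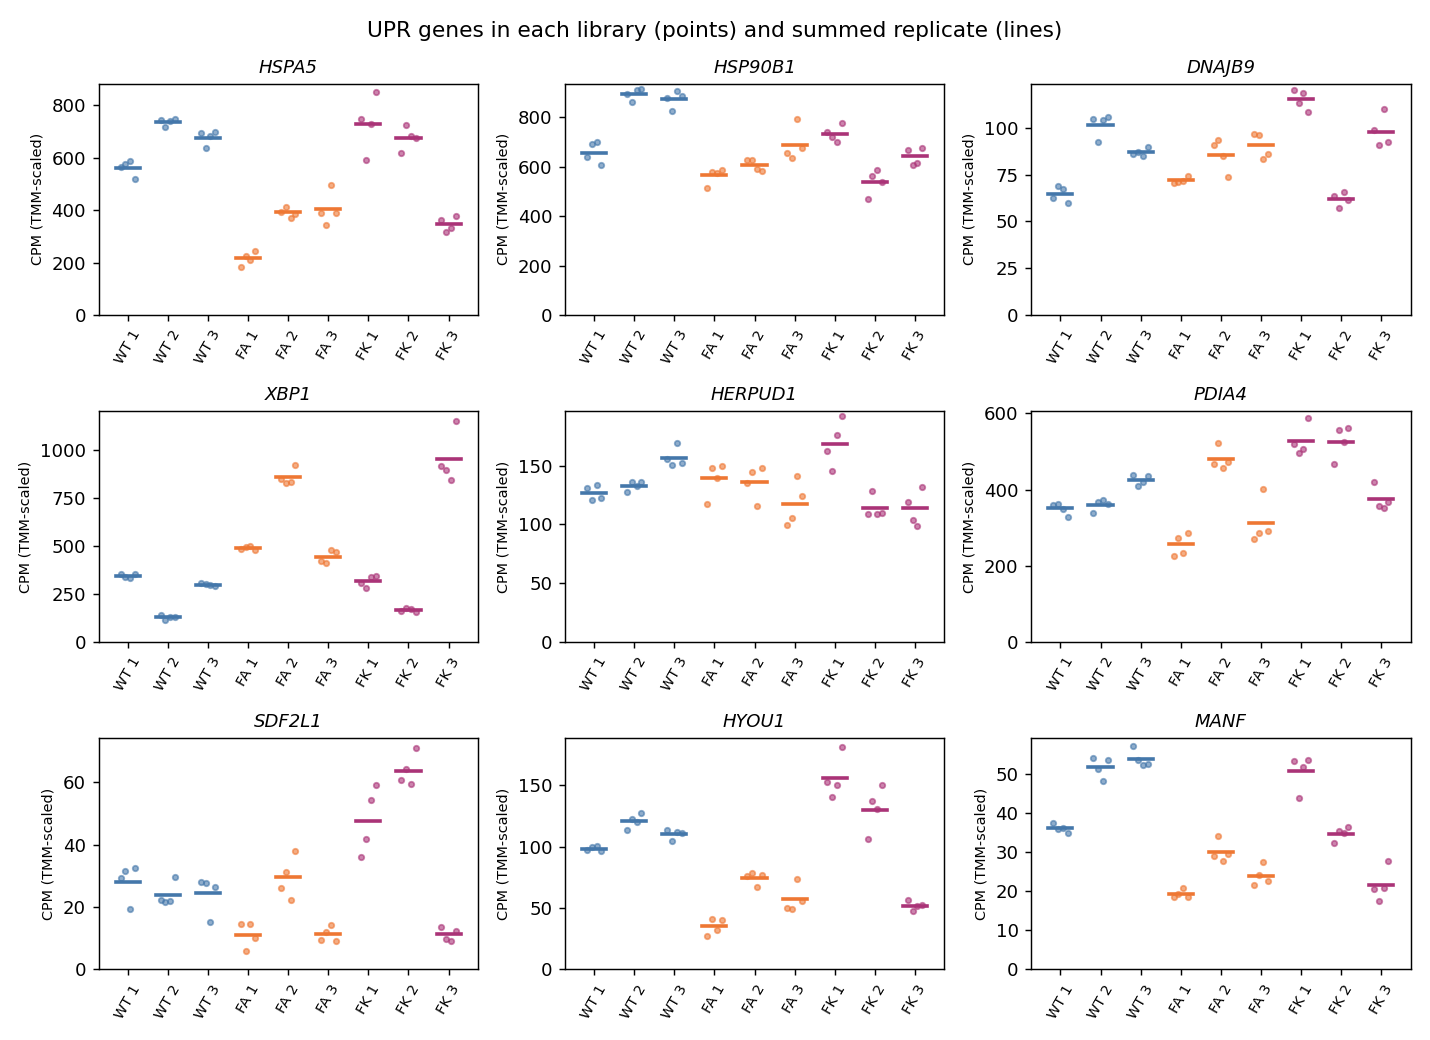
Level of the 9 genes (y axes, CPM after TMM scaling, starting at 0) in each library (points) and in the summed replicate (lines), by replicate (x axes), with WT in blue, FA in orange and FK in magenta. HSPA5, HYOU1 and MANF are lower in the FA replicates and FK replicate 3 than in every WT replicate, and XBP1 is higher there; the 4 libraries of a set lie close together for most genes.

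HSPA5 encodes BiP, the main Hsp70 chaperone of the ER, which also holds the stress sensors inactive. Its WT replicates 1, 2 and 3 read 562, 738 and 677 CPM, with 218, 392 and 404 CPM in FA and 728, 674 and 348 CPM in FK. All FA replicates were low and did not overlap WT, while FK held both high replicates and a low replicate 3. The FA mean of 338 ± 104 CPM (SD, n = 3) was 51.3% of the WT mean of 659 ± 89.3 CPM, a fitted log2 difference of -0.96 (SE 0.37, 95% interval -1.80 to -0.12). Its unadjusted p was 0.0292 and its adjusted p in edgeR was 0.428. FK averaged 583 ± 205 CPM and differed from WT by -0.175 (SE 0.37, interval -1.01 to 0.66, adjusted p = 0.795 in edgeR). Without FK replicate 3 that estimate was 0.07.

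HYOU1, a large Hsp70-related chaperone that exchanges nucleotide on BiP, separated FA from WT in the same way. Its level was 98.4, 121 and 110 CPM in WT, 35.5, 74.7 and 57.1 CPM in FA, and 156, 130 and 52.1 CPM in FK. The FA replicates and FK replicate 3 all lay under WT, and FK replicates 1 and 2 lay above all of WT. Against WT the fitted log2 difference was -0.98 in FA (SE 0.41, interval -1.90 to -0.05, unadjusted p = 0.0403, adjusted p = 0.467 in edgeR) and 0.035 in FK (SE 0.40, interval -0.88 to 0.95, adjusted p = 0.968).

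SDF2L1 forms a complex with the BiP cochaperone DNAJB11 and keeps BiP clients soluble. It was measured at 28.1, 23.9 and 24.3 CPM in WT, 11.1, 29.5 and 11.2 CPM in FA, and 47.5, 63.5 and 11.2 CPM in FK. FA replicate 2 was thus slightly above WT while FA replicates 1 and 3 and FK replicate 3 lay close together under all of WT. FK replicates 1 and 2 were the highest of the 9. The estimates were -0.56 for FA (SE 0.59, adjusted p = 0.809 in edgeR) and 0.68 for FK (SE 0.59, interval -0.65 to 2.01, adjusted p = 0.489) against WT. SDF2L1 had the fewest counts of the 9 genes and the widest spread among the libraries of a set, with a coefficient of variation of 8.07% to 36.7%.

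DNAJB9 encodes ERdj4, an ER cochaperone of BiP that also restrains IRE1. Its replicates stood at 64.6, 102 and 87.0 CPM in WT, 72.0, 85.7 and 90.6 CPM in FA, and 115, 62.1 and 97.8 CPM in FK. The FA replicates lay inside the WT range, and FK held both the highest and the lowest replicate. Fitted log2 differences from WT were -0.03 in FA (interval -0.64 to 0.59) and 0.12 in FK (interval -0.495 to 0.735), with adjusted p of 0.986 and 0.81 in edgeR.

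HSP90B1 encodes GRP94, the Hsp90 chaperone of the ER. Levels were 657, 895 and 872 CPM in WT, 565, 606 and 689 CPM in FA, and 733, 536 and 642 CPM in FK. WT replicates 2 and 3 were the highest, but WT replicate 1 overlapped FA and FK. The means were 808 ± 131, 620 ± 63.3 and 637 ± 98.7 CPM in WT, FA and FK, and the log2 differences from WT were -0.38 in FA (interval -0.99 to 0.23, adjusted p = 0.685 in edgeR) and -0.34 in FK (interval -0.95 to 0.27, adjusted p = 0.448). Unlike HSPA5, the estimates for FA and FK were nearly the same, at -0.04 between them (interval -0.65 to 0.57).

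PDIA4, a protein disulfide isomerase also known as ERp72, forms and rearranges disulfide bonds. It stood at 351, 361 and 425 CPM in WT, 258, 481 and 312 CPM in FA, and 526, 524 and 375 CPM in FK. FK replicates 1 and 2 and FA replicate 2 were above all of WT, whereas FA replicates 1 and 3 were below it. The fitted log2 difference from WT was 0.33 in FK (interval -0.35 to 1.01, adjusted p = 0.515 in edgeR) and -0.11 in FA (interval -0.79 to 0.56, adjusted p = 0.938).

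MANF, a small ER protein that is secreted under stress and binds BiP, was lowest in FA and in FK replicate 3. Its values were 36.2, 51.9 and 54.0 CPM in WT, 19.2, 30.1 and 24.0 CPM in FA, and 50.8, 34.7 and 21.7 CPM in FK. No FA replicate reached WT, and FK spanned from the WT range to the FA range. The FA mean of 24.5 ± 5.48 CPM was 51.6% of the WT mean of 47.4 ± 9.73 CPM, at a log2 difference of -0.95 (SE 0.32, interval -1.69 to -0.22). MANF had the smallest p of the 9 genes in that comparison, unadjusted p = 0.0165 and adjusted p = 0.377 in edgeR. FK differed from WT by -0.41 (interval -1.13 to 0.32, adjusted p = 0.449).

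HERPUD1, an ER membrane protein that helps assemble the HRD1 complex for degradation of misfolded chains, varied least between replicates. It ranged from 127 to 156 CPM in WT, from 117 to 140 in FA and from 114 to 169 in FK, and its coefficient of variation over the 9 replicates was 14.1%. The 3 groups overlapped, and the log2 differences from WT were -0.08 in FA (interval -0.59 to 0.42, adjusted p = 0.94 in edgeR) and -0.07 in FK (interval -0.58 to 0.43, adjusted p = 0.867).

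XBP1, the transcription factor whose transcript IRE1 cuts, had an order of replicates largely opposite to that of HSPA5. Its WT replicates 1, 2 and 3 read 345, 130 and 300 CPM, with 489, 857 and 445 CPM in FA and 318, 167 and 953 CPM in FK. All FA replicates and FK replicate 3 lay above WT, and FK replicates 1 and 2 lay inside the WT range. FA averaged 597 ± 226 CPM against 258 ± 113 CPM in WT, 2.31-fold, at a log2 difference of 1.21 (SE 0.65, interval -0.25 to 2.67, unadjusted p = 0.0939, adjusted p = 0.569 in edgeR). The FK estimate of 0.89 (SE 0.64, interval -0.56 to 2.35, adjusted p = 0.4) rested on FK replicate 3, since it was -0.11 without that replicate. XBP1 was the most variable of the 9 genes, with a coefficient of variation of 64.3% and a 7.35-fold range over the 9 replicates.

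The ratio of XBP1 to HSPA5 within a replicate does not depend on how libraries are scaled, and it was examined after the values were seen, so it is a description with no test. It was 0.613, 0.176 and 0.443 in WT replicates 1, 2 and 3, and 0.436 and 0.248 in FK replicates 1 and 2. In FA replicates 1, 2 and 3 it was 2.24, 2.19 and 1.10, and in FK replicate 3 it was 2.74. The 5 replicates of WT and of FK 1 and 2 all lay under the 4 others. That had to be so, since HSPA5 was higher and XBP1 lower in each of the 5 than in any of the 4. The split was itself read from these levels, so the ratio is no further evidence for it.

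**Figure D2:**
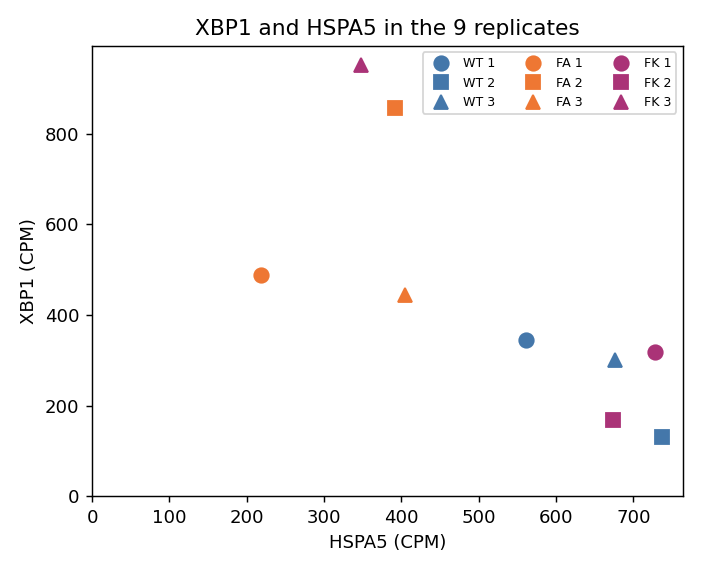
XBP1 (y axis, CPM) against HSPA5 (x axis, CPM) in the 9 replicates, with colours for the group and symbols for the replicate number. FA replicates 1 to 3 and FK replicate 3 have HSPA5 of 218 to 404 CPM and XBP1 of 445 to 953 CPM, and the other 5 replicates have HSPA5 of 562 to 738 CPM and XBP1 of 130 to 345 CPM.

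Every member varied more between the 9 replicates than among the libraries of a typical set. The 4 libraries of a set are not independent replicates of a condition. The median coefficient of variation within sets was 5.51% to 10.7% for 8 genes and 22% for SDF2L1, against 14.1% to 64.3% between the 9 replicates. HSPA5 was read at 185 to 497 CPM in the 12 FA libraries and at 518 to 750 CPM in the 12 WT libraries. HYOU1 was read at 27.0 to 78.4 and 96.3 to 128 CPM, MANF at 18.5 to 34.1 and 34.9 to 57.4 CPM, and XBP1 at 413 to 919 and 118 to 354 CPM in the same 2 groups. For these 4 genes no FA library reached the WT libraries, by a narrow gap in MANF, and for the other 5 the libraries of FA and WT overlapped. The same 4 genes were apart by replicate, so the libraries mostly repeat the separation of the sets. By replicate, 12.4% of all genes tested were lower and 12.5% higher in FA than in WT without overlap. The share of all genes apart by library is not given, so the library ranges are no further evidence. In HSPA5, HSP90B1, HERPUD1, PDIA4 and HYOU1 the libraries of FA replicate 3 were the least alike: HSPA5 ran from 344 to 497 CPM there, against 716.5 to 750 CPM in WT replicate 2.

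Counted by replicate, 6 of the 9 genes lay under all WT replicates in FA replicates 1 and 3 and in FK replicate 3, and 4 did so in FA replicate 2 and in FK replicate 2. Over all genes tested the share under all WT replicates was 32.5%, 31.9% and 33.7% in FA replicates 1, 2 and 3 and 38%, 39.1% and 33.2% in FK replicates 1, 2 and 3. None of the 9 lay under WT in FK replicate 1, where DNAJB9, HERPUD1, PDIA4, SDF2L1 and HYOU1 lay above it. Above all WT replicates lay 3 of the 9 in FA replicate 2 and in FK replicate 2 and 1 in FA replicates 1 and 3 and in FK replicate 3. Over all genes tested that share was 32.5%, 32.6% and 33.2% in FA replicates 1, 2 and 3 and 39.8%, 39.8% and 34.2% in FK. The 4 genes that were low in FK replicate 2 were HSP90B1, DNAJB9, HERPUD1 and MANF, of which only HSP90B1 and MANF were also low in FA replicate 2. FK replicates 1 and 2 lay on opposite sides of WT for DNAJB9 and HERPUD1.

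**Figure D3:**
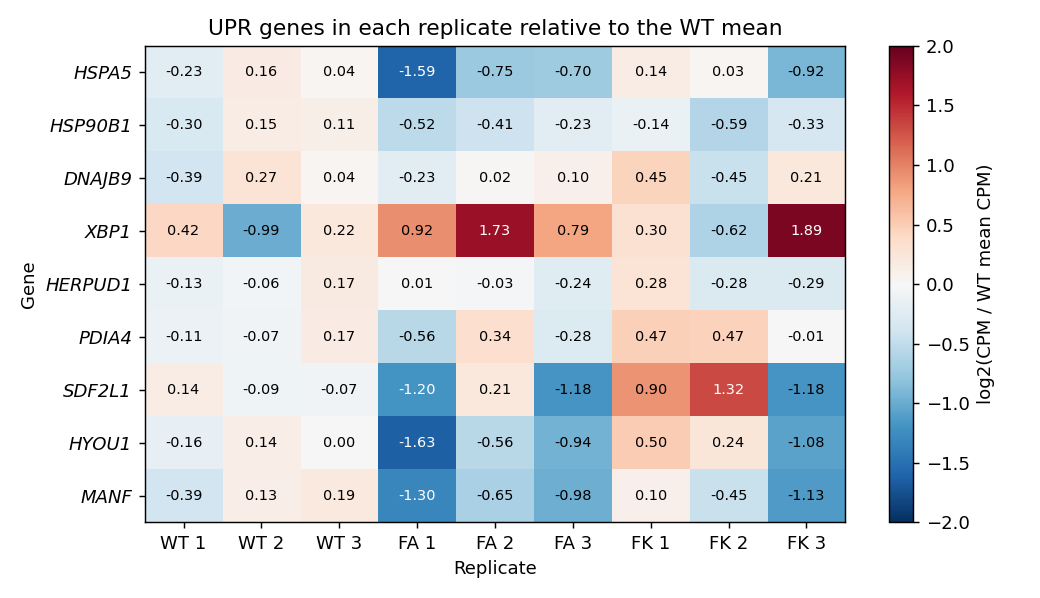
Log2 ratio of each replicate's CPM to the WT mean CPM (colour and printed value) for the 9 genes (rows) in the 9 replicates (columns). In FA replicate 1 and FK replicate 3, HSPA5, SDF2L1, HYOU1 and MANF stand between -1.63 and -0.92 while XBP1 stands at 0.92 and 1.89, and HERPUD1 stays between -0.29 and 0.28 everywhere.

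Between FA and WT, no member was called among the 9 tested, with 25 of 14939 genes called in all (0.167%, of which 0.0937% higher and 0.0736% lower). At an unadjusted p under 0.05, HSPA5, HYOU1 and MANF were lower and no member was higher, against 5.05% of all genes lower and 5.11% higher. Replicates did not overlap for these 3 lower genes and for XBP1 on the higher side, against 12.4% of all genes lower and 12.5% higher. The estimate was below 0 for 8 of 9 members, with a median log2 difference of -0.38 against 0.004 over all genes. DESeq2 called none of the 9 (3 at an unadjusted p under 0.05), with 0.949% of all genes called higher and 0.763% lower. Without FK replicate 3 edgeR called none either, with 0.912% of all genes higher and 0.686% lower. limma-voom on the 36 libraries with the set as a random effect called 4 members. HSPA5 (-1.02, adjusted p = 0.00174), HYOU1 (-1.06, adjusted p = 0.0092) and MANF (-0.97, adjusted p = 0.00584) were lower and XBP1 (1.27, adjusted p = 0.0166) was higher. In that fit 1.71% of all genes were called lower and 1.74% higher. It used 1 correlation between libraries of a set (0.791) for all genes. For these 4 genes the median coefficient of variation within sets was 5.51% to 6.92%, against 36.2% to 64.3% between the 9 replicates. The latter range includes the differences between groups, so it overstates the spread between sets of a group. Libraries of a set agreed closely, and the limma-voom p-values may be too small for these genes, which was not tested.

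Marker genes of several non-hepatocyte types also had lower sums in FA. Plasma and B cells, of which plasma cells have a large ER and high UPR gene levels, had 11 of 12 markers matched, summing to 177 to 199 CPM in WT, 86.8 to 96.8 CPM in FA and 38.2, 40.5 and 81.0 CPM in FK replicates 1, 2 and 3. No marker of that list was at 0 throughout any group, and JCHAIN, the joining chain of secreted antibodies, stood at 78.05 to 92.4 CPM in WT, 25.4 to 33.5 CPM in FA and 1.84, 1.545 and 27.6 CPM in FK replicates 1, 2 and 3. Most of the sum came from JCHAIN and SDC1. SDC1 stood at 89.8 to 99.0 CPM in WT, 57.0 to 58.1 CPM in FA and 33.2, 32.85 and 50.9 CPM in FK replicates 1, 2 and 3. In WT, MZB1 read only 1.749 to 2.475 CPM and TNFRSF17 0.354 to 0.479 CPM. Which cells the SDC1 counts came from was not tested, so the sum is not taken as a measure of plasma cells. Single markers ordered the replicates differently: MZB1 read 1.5 CPM in FK replicate 2, 0.208 and 0.557 CPM in FK replicates 1 and 3, and 0.502 to 0.842 CPM in FA. The list's median log2 ratio to the WT mean was -2.33, -0.92 and -1.81 in FK replicates 1, 2 and 3 and -0.93, -1.17 and -1.54 in FA. The part of plasma and B cells in the levels of the UPR genes was not tested. The 8 macrophage markers matched summed to 587.5 to 796 CPM in WT and 319 to 421 CPM in FA, the 8 endothelial markers to 239 to 298 and 136 to 206 CPM, and the 8 stellate cell markers to 210 to 259 and 130 to 180 CPM. In FK the ranges were 524 to 777, 193.5 to 312.5 and 152 to 266 CPM. No marker of these 3 lists was at 0 throughout a group, and their part in the levels of the UPR genes was not tested.

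Between FK and WT, no member was called among the 9, and none had an unadjusted p under 0.05, while edgeR called 712 of 14939 genes (4.77%, of which 3.04% higher and 1.73% lower). The unadjusted share was 16.7% higher and 10.2% lower. For none of the 9 were the FK and WT replicates apart, against 13.9% of all genes higher and 13.5% lower without overlap. Estimates were above 0 for 5 members and below 0 for 4, with a median log2 difference of 0.035 against 0.05 over all genes. DESeq2 and limma-voom likewise called none (0 and 3 at an unadjusted p under 0.05), where they called 8.86% and 7.8% of all genes higher and 4.8% and 11.4% lower. Leaving out FK replicate 3 also gave no call among the 9, although 18.7% of all genes were then called higher and 16.2% lower. The largest estimate in that fit was that of SDF2L1, at 1.11 (SE 0.40, adjusted p = 0.0592 in edgeR).

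FA and FK were both low in FAH, and between them edgeR called no member and no gene at all (0%), with 3275 genes at an unadjusted p under 0.05, 7.06% of all higher in FA and 14.9% lower. Among members HYOU1 alone was in that set, at a log2 difference of -1.01 (SE 0.41, interval -1.94 to -0.09, unadjusted p = 0.0352, adjusted p = 0.198). HSPA5 and SDF2L1 had estimates of -0.79 (interval -1.62 to 0.05, adjusted p = 0.25 in edgeR) and -1.24 (interval -2.58 to 0.10, adjusted p = 0.257). FA and FK replicates overlapped for all 9 genes, against 8.26% of all genes higher and 8.98% lower without overlap. Without FK replicate 3, where 18.1% of all genes were called lower in FA and 16.4% higher, 4 members were called lower: HYOU1 (-1.34, adjusted p = 0.0076), SDF2L1 (-1.67, adjusted p = 0.0119), HSPA5 (-1.03, adjusted p = 0.0254) and MANF (-0.79, adjusted p = 0.0474). DESeq2 called none (3 at an unadjusted p under 0.05), with 1.87% of all genes higher and 7.06% lower. limma-voom called 3 lower, HSPA5, HYOU1 and PDIA4, where 6.28% of all genes were called lower and 10.7% higher. The limit given above for the limma-voom p-values holds for these calls too.

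**Figure D4:**
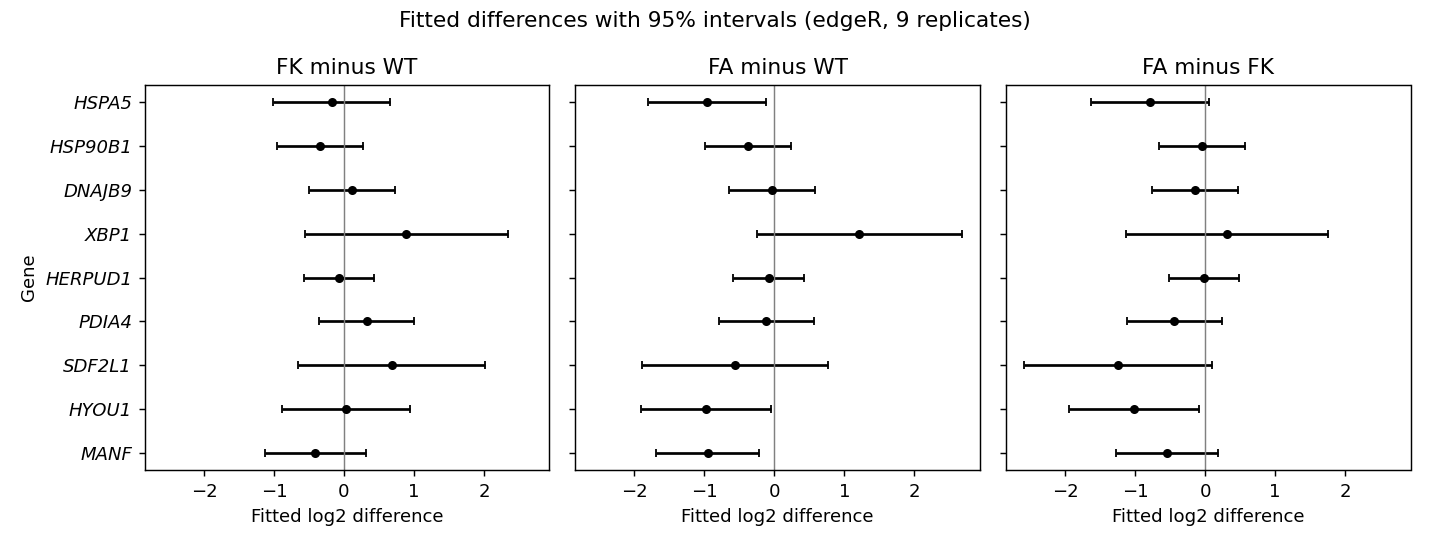
Fitted log2 difference (x axes) of the 9 genes (y axis) for FK minus WT, FA minus WT and FA minus FK, with points for the edgeR estimate and bars for its unadjusted 95% interval. The intervals of HSPA5, HYOU1 and MANF lie below 0 for FA minus WT, that of HYOU1 also for FA minus FK, and no interval excludes 0 for FK minus WT.

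The rest of the pathway is given by list, and genes named below that passed no test were chosen after their values were seen. Over all genes edgeR called 4.77% for FK against WT, 0.167% for FA against WT and 0% for FA against FK. With shares this low, few or no calls in a list do not set it apart. Upstream of the members, 14 of 15 listed sensors and regulators were matched and tested. In edgeR 1 was called, in FK against WT: WFS1, an ER membrane protein linked to ATF6 turnover, fell in every FK replicate below WT, from a mean of 33.7 ± 5.37 CPM to 17.6 ± 1.16 CPM. Its log2 difference was -0.94 (SE 0.17), with an adjusted p of 0.034 in edgeR. The FA mean was 18.2 ± 1.63 CPM (adjusted p = 0.118), and neither FA nor FK overlapped WT. The call did not hold when any replicate other than FK replicate 3 was left out (adjusted p of 0.0527 to 0.133). ATF6 stood at 40.3 ± 4.27, 30.5 ± 4.94 and 27.5 ± 3.05 CPM in WT, FA and FK, with adjusted p of 0.497 and 0.0998 against WT. The kinase genes ERN1 and EIF2AK3 stood at 11.7 and 12.8 CPM in WT, 12.4 and 9.37 in FA and 16.6 and 14.7 in FK, and neither was called. CREB3L1, a membrane-bound factor related to ATF6, was named after its values were seen: FK replicates 1 and 2 read 90.1 and 73.9 CPM for it, against 0.736 to 2.43 CPM in the other 7 replicates (adjusted p = 0.053 for FK against WT).

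The PERK and ATF4 arm held 12 genes, all tested, and edgeR called none in any comparison. At an unadjusted p under 0.05, 3 of the 12 were higher in FK than in WT and 1 was higher in FA, against 16.7% and 5.11% of all genes. The median log2 difference was 0.55 in FK and 0.23 in FA, against 0.05 and 0.004 over all genes. The arm's medians in FK replicates 1, 2 and 3 were 0.66, 0.58 and -0.08. ATF4 itself averaged 68.4 ± 19.8, 56.8 ± 12.2 and 71.8 ± 32.1 CPM in WT, FA and FK, and DDIT3, which encodes the factor CHOP, averaged 6.71, 6.53 and 11 CPM. NUPR1, a stress-induced nuclear protein named after its values were seen, stood at 14.6 ± 4.4 CPM in WT, 78.6 ± 29.1 in FA and 44.8 ± 18.5 in FK, without overlap with WT in either (adjusted p = 0.0934 and 0.0585 in edgeR). Without FK replicate 3, 5 of the 12 were called higher in FK, where 18.7% of all genes were called higher; the list was run in that setting after the data were seen. DESeq2 and limma-voom called 3 and 2 higher in FK, where they called 8.86% of 19913 and 7.8% of 12775 genes higher. Against WT, 1 gene of the arm was called higher in FA by DESeq2 and by limma-voom, where 0.949% and 1.74% of all genes were. In edgeR 1 was called higher with the 2 groups alone (139 of 14379 genes) and without FK replicate 3 (0.912% of all genes). The limit given above for the limma-voom p-values may apply to its call here.

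Of 23 other ER chaperones and cochaperones 21 were tested, and edgeR called none in any comparison. Over all genes it called 4.77% for FK and 0.167% for FA against WT, and 0% between FA and FK. Their median log2 difference from WT was -0.04 in FA and -0.06 in FK. CALR, the gene of calreticulin, a lectin chaperone of the ER, was listed at 0 to 0.773 CPM in all replicates and was filtered out. Whether that row captures the CALR transcripts was not tested, so its counts do not show that the gene is silent. CANX, its membrane-bound relative calnexin, averaged 494, 522 and 471 CPM in WT, FA and FK with no call. Of 17 genes of disulfide formation 15 were tested and edgeR called none. In PDIA6, a further disulfide isomerase, WT averaged 337 ± 13.4 CPM and did not overlap FA at 197 ± 69.2 or FK at 219 ± 24.0 CPM, with adjusted p of 0.393 and 0.185 in edgeR.

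ER-associated degradation, in which misfolded chains are returned to the cytosol, had 24 of 27 genes tested and no call by edgeR in any comparison. The shares of all genes called were 4.77% for FK against WT, 0.167% for FA against WT and 0% between FA and FK. At an unadjusted p under 0.05, 5 of the 24 were lower and 3 higher in FK, against 10.2% of all genes lower and 16.7% higher, and none differed in FA. The median log2 difference was -0.29 in FK and -0.04 in FA. Of 25 genes for protein entry into the ER, signal peptide removal and N-glycan transfer, 24 were tested and edgeR called 1. SRPRA, the receptor subunit that docks ribosomes at the ER membrane, fell in FK to a mean of 190 ± 27.1 CPM against 396 ± 13.5 CPM in WT. Its log2 difference was -1.06 (SE 0.24), with an adjusted p of 0.0471 in edgeR, and it averaged 212 ± 43.5 CPM in FA (adjusted p = 0.257). It was not called in FK once any replicate other than FK replicate 3 was left out (adjusted p of 0.0703 to 0.165). SEC61A1, the channel subunit through which chains enter, stood at 230 ± 2.67, 152 ± 36.8 and 155 ± 14.2 CPM in WT, FA and FK, with adjusted p of 0.424 and 0.153.

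Of 27 genes of transport between ER and Golgi 24 were tested and edgeR called none. Among all genes it called 4.77% for FK and 0.167% for FA against WT, and 0% between FA and FK. KDELR3, a receptor that returns escaped ER chaperones from the Golgi, was named after its values were seen. It stood at 7.14, 8.10 and 13.1 CPM in WT, 2.20, 1.93 and 2.12 in FA, and 20.5, 16.9 and 3.63 in FK. FA overlapped neither WT nor FK in KDELR3, with adjusted p of 0.239 and 0.115 in edgeR. KDELR1 and KDELR2, its relatives, had log2 differences of -0.12 and -0.34 between FA and WT. A list of 22 cytosolic and mitochondrial chaperones, which are not targets of the ER response, had 21 tested genes, no call in edgeR and medians of 0.04 in FA and -0.23 in FK. These counts depended on the tool and on FK replicate 3. For FK against WT, DESeq2 called 3 sensors and regulators, 1 disulfide gene, 3 degradation genes, 2 genes of ER entry and 2 of transport between ER and Golgi, and none of the other ER, cytosolic or mitochondrial chaperones. Of these, 1 sensor or regulator and 1 degradation gene were higher and the rest lower, against 8.86% of all genes higher and 4.8% lower. limma-voom called 3, 5, 4, 6 and 5 of the same lists in that order, 1 other ER chaperone and 5 cytosolic and mitochondrial chaperones. Of these, 2 disulfide genes, 1 degradation gene and 1 transport gene were higher and the rest lower, against 7.8% of all genes higher and 11.4% lower. Without FK replicate 3, edgeR called 4, 3, 7, 3 and 6 of the same lists, 5 other ER chaperones and 6 cytosolic and mitochondrial chaperones. The directions of these calls are not given here. In that fit 5396 of 15453 genes were called, 18.7% of all genes higher and 16.2% lower. For FA against WT, limma-voom called 1 sensor or regulator, 2 disulfide genes, 2 genes of ER entry, 2 of transport between ER and Golgi and 1 cytosolic or mitochondrial chaperone, and DESeq2 called 1 sensor or regulator, 1 gene of ER entry and 1 of transport. All of these were lower in FA apart from 1 disulfide gene in limma-voom. Over all genes limma-voom called 1.74% higher and 1.71% lower, and DESeq2 0.949% and 0.763%. The limit given above for the limma-voom p-values may apply to its calls in these lists too.

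**Figure D5:**
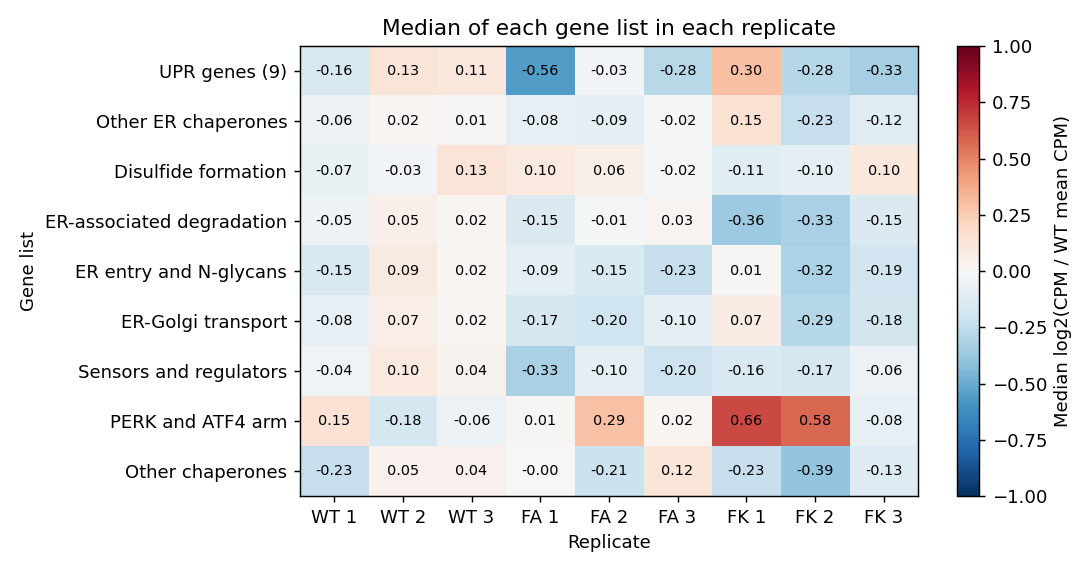
Median log2 ratio of CPM to the WT mean (colour and printed value) of each gene list (rows) in each replicate (columns). The 9 UPR genes have medians of -0.56, -0.03 and -0.28 in FA replicates 1, 2 and 3 and 0.30, -0.28 and -0.33 in FK replicates 1, 2 and 3, and the PERK and ATF4 arm stands at 0.66 and 0.58 in FK replicates 1 and 2.

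Of 7160 other genes with a mean of at least 10 CPM, the 8 whose log2 profile over the 9 replicates lay closest to the median profile of the members were PPFIBP1, DNAJC3, KDELR2, TMED7, TEC, UMPS, ARF4 and SLC30A5. Their root mean square differences from it were 0.154 to 0.193 log2 units. DNAJC3 is an ER cochaperone of BiP, KDELR2 a retrieval receptor, and TMED7 and ARF4 act in transport between ER and Golgi. DNAJC3 stood at 101, 119 and 148.5 CPM in WT, 95.7, 99.6 and 109 in FA, and 150, 104 and 91.6 in FK. The members themselves lay farther from their own median profile, from 0.207 for HERPUD1 to 1.27 for XBP1, so the median profile describes none of HSPA5, HYOU1, SDF2L1 or XBP1 closely.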

How the data were processed

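The authors deposited 1 table of estimated counts per gene, whole numbers, for 36 libraries. Salmon 0.14.1 is listed in the submitters' processing notes, without its role. Build, annotation and strandedness are not given in the sources used for this work, so genes overlapping on opposite strands and near-identical copies are uncertain. The 4 libraries of each titled set were summed to 9 replicates (53.2 to 78.6 M counts). edgeR 4.0.16 (R 4.3.3) fitted all 9 with TMM factors, filterByExpr and quasi-likelihood F tests, with Benjamini-Hochberg adjustment over 14939 genes; a gene was called at an adjusted p under 0.05. CPM values are counts scaled to TMM-adjusted library size, with SDs over 3 replicates, and intervals are unadjusted 95% intervals of the fitted log2 difference. The fit was also run on simulated data, but no outcome is given here, so that run is not a check of these results. Members and lists were chosen with earlier results of these data known. LOC rows were matched to list symbols by RefSeq gene ID (mOryCun1.1).

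Named were all members, FAH, list genes called in a comparison, and the 8 nearest profiles; other list genes were named after their values were seen. Alternatives were DESeq2 1.42.0, RLE factors, no low-count filter, at least 1 CPM in 3 replicates, the 2 compared groups alone, the set number as a block, limma-voom (limma 3.58.1) over single libraries, sets entering as random effect (consensus correlation 0.791), and each replicate left out. Figures used matplotlib 3.10.9.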

Additional observations from a re-analysis of the deposited data

How the results depend on the processing

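No member was called between FK and WT under any alternative. Between FA and WT the count of called members was 0 under all but limma-voom on 36 libraries, which gave 4. Between FA and FK it was 0 apart from 3 under limma-voom and a range of 0 to 4 when each replicate was left out, with the 4 arising without FK replicate 3. Counts over all genes moved far more. For FK against WT (712) they were 43 with the 2 groups alone, 2720 in DESeq2, 2448 in limma-voom and 22 to 5396 with a replicate left out, lowest without FK replicate 1 and highest without FK replicate 3. For FA against WT (25) they were 235, 341, 440 and 2 to 247 in the same order. For FA against FK (0) they were 1778 in DESeq2, 2169 in limma-voom and 0 to 5324 with a replicate left out. The cause was not tested.

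With the set number as a replicate block no member was called in any comparison (0), and all genes called numbered 47 for FK against WT, 3 for FA against WT and 0 for FA against FK. Same-numbered sets of different groups correlated at -0.0868 to 0.0993 in their deviations, so the numbers were not taken as pairing samples. WFS1 and SRPRA were not called in FK under the block (adjusted p = 0.0759 and 0.0993 in edgeR) or with the 2 groups alone (0.0933 and 0.106), and SRPRA not without the low-count filter (0.0521).

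Directions that changed belonged to estimates near 0 or to FK. HYOU1 in FK against WT was -0.018 under the block and -0.098 in limma-voom. HERPUD1 in FA against FK was 0.0013 with RLE factors, 0.0084 without the filter, 0.0012 under the block, 0.0025 with the 2 groups alone and 0.0062 in DESeq2. Leaving out a replicate gave log2 differences that crossed 0. For FK against WT they ran from -0.36 to 0.070 for HSPA5, -0.080 to 0.34 for DNAJB9, -0.11 to 1.3 for XBP1, -0.29 to 0.026 for HERPUD1 and -0.27 to 0.36 for HYOU1. For FA against WT they ran from -0.19 to 0.12 for DNAJB9, -0.14 to 0.0018 for HERPUD1 and -0.41 to 0.065 for PDIA4. For FA against FK they ran from -0.14 to 0.074 for HSP90B1, -0.36 to 0.051 for DNAJB9, -0.082 to 1.3 for XBP1 and -0.10 to 0.20 for HERPUD1.

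A SD over 3 replicates is itself imprecise, and the labels do not say what separates the sets of a group. SDF2L1 and MANF had the lowest counts, so counting error weighs most on them.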
